A study of Mus musculus with 11 samples.

Results

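The genes described here encode the oxidant-sensing factor NRF2 and its inhibitor KEAP1, detoxification enzymes that NRF2 induces, the enzymes that make and recycle glutathione, the glutathione transferases, and the enzymes that supply NADPH. A list of 34 gene symbols was matched to the deposited table of 55385 genes, and all 34 were present. The low-count filter kept 33 of them among the 15416 genes tested. Slc7a11, the cystine importer that feeds glutathione synthesis, did not pass it.

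Expression was measured by RNA sequencing in gastrocnemius, a calf muscle, from mice fasted for 36 h. ZEB1 and ZEB2 are zinc-finger transcription repressors, and each line had floxed controls (ZEB1 flx/flx or ZEB2 flx/flx) and knockouts that carried the same floxed alleles with HSACre (ZEB1 flx/flx; HSACre or ZEB2 flx/flx; HSACre). HSACre is a recombinase under the skeletal actin promoter, active in myofibres, so cells of other types keep their alleles. No group carried Cre without floxed alleles, and deletion and Cre presence cannot be told apart. The 11 libraries were 2 ZEB1 controls (numbered 2 and 3), 3 ZEB1 knockouts, 3 ZEB2 controls and 3 ZEB2 knockouts, each a pool of RNA from 2 mice, so tests measure the spread between pools. Fed muscle was not analysed here, and the labels give no ages.

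Under basal conditions KEAP1 binds NRF2 and directs it to degradation by the proteasome. Oxidants and electrophiles modify KEAP1, NRF2 accumulates and, as a dimer with a small MAF protein, it binds antioxidant response elements in the promoters of its target genes. Glutathione is built by glutamate-cysteine ligase (Gclc and its modifier Gclm) and glutathione synthetase (Gss), kept reduced by glutathione reductase (Gsr) with NADPH, and attached to electrophiles by glutathione transferases.

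Levels are given as CPM, counts per M counts after TMM scaling, with library totals from 27.3 M to 46.3 M counts. The 34 genes together took 0.124% to 0.163% of counts. The knockouts carried less of their target than their controls, with Zeb1 at 28.4 to 30.4 CPM against 41.2 and 51.1 CPM, and Zeb2 at 14.4 to 18.3 CPM against 23.1 to 25.8 CPM. Summed CPM of 15 myofibre markers ran from 123552 to 161947, and none was at 0 in any library. In bulk RNA, fewer cells of a type and less RNA per cell cannot be told apart.

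The core of the antioxidant response element, searched on both strands as TGACNNNGC or TGAGNNNGC in the 250 bases upstream of RefSeq start sites (GRCm38.p6), was found in 14 of the 29 members in the promoter table (48.3%). It was found in 6932 of 27025 genes of that table (25.7%). Gclc, Gsr, Abcc1, Gsta4 and Gstt2 were not matched. The stretches around 5 cores are shown as examples. Osgin1, Gclm, Gstp1 and Nfe2l2 were higher, and G6pdx lower, in every ZEB2 knockout pool than in any ZEB2 control. Cores not shown include those of Gstm5, which was higher in the same way, and of Gstm7 and Gstt1, which were lower. Each is written 5′ to 3′ on the gene's strand with the core in capitals, and a core that matches on the minus strand appears as its reverse complement.
Osgin1: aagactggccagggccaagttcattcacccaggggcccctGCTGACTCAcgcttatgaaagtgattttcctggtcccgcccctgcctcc
Gclm: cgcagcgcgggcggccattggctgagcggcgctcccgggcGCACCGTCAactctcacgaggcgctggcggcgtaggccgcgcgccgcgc
Gstp1: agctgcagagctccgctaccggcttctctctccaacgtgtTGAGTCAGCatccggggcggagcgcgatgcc
Nfe2l2: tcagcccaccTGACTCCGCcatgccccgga
G6pdx: tgcctctcctgaggcgggtcaGCTCAGTCA
The Osgin1 stretch (chr8:119437008-119437096, plus strand) lies within the gene and outside annotated exons, with its core 99 bases upstream of a RefSeq start site. The Gclm stretch (chr3:122245383-122245471, plus strand) lies outside annotated genes, with its core 134 bases upstream. The Gstp1 stretch (chr19:4037956-4038026, minus strand) covers 30 exonic bases of Gstp1 in GENCODE M21 and has its core 74 bases upstream of the RefSeq start. The Nfe2l2 stretch (chr2:75704884-75704913, minus strand) lies in an exon of the neighbouring transcript E030042O20Rik, with its core 240 bases upstream. The G6pdx stretch (chrX:74428929-74428958, minus strand) lies in an exon of G6pdx, 57 bases upstream of a RefSeq start, within the span of Ikbkg on the opposite strand. The cores of Osgin1 and Gstp1 also contain the AP-1 site TGACTCA or TGAGTCA. These matches describe letters only. G6pdx, Gstm7 and Gstt1, which were lower in every ZEB2 knockout pool, hold cores as well.

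No member passed an adjusted p of 0.05 in edgeR in either knockout contrast, and neither did any other gene (0% of 15416 in each). The smallest adjusted p over all genes was 0.1052 in the ZEB1 line and 0.0775 in the ZEB2 line. DESeq2 called no member in the ZEB1 line (0.113% of the genes it tested). Many genes of the ZEB2 line lay close to the threshold: 33.2% of all genes had an unadjusted edgeR p under 0.05, 15.9% higher and 17.3% lower in knockouts. Among the 33 members 7 were higher and 5 were lower at that level, close to the share over all genes. When libraries were scaled by the upper quartile or by their totals, 4 were higher and 6 lower, and the share over all genes was not counted. DESeq2, run as an alternative, called 7 members in the ZEB2 line, where it called 18.1% of the genes it tested (9.78% higher and 8.34% lower): Nfe2l2, Osgin1, Gstp1 and Gstm5 as higher, and Tkt, G6pdx and Idh1 as lower. Of the 33 members 22 had a log2 difference above 0 in the ZEB2 line (median 0.15), as 46.6% of all genes did, and 15 in the ZEB1 line (median -0.023), as 51.2% of all genes did. Under the same 2 scalings the ZEB2 split was 18 above and 15 below 0, with medians of 0.023 and 0.029. Those scalings also moved the ZEB2 median over all genes, from -0.047 to -0.18 and -0.17. The share of all genes above 0 was not counted under them. The map of all members by library shows the main pattern, in which the 3 ZEB2 knockouts stood high for Nfe2l2, Keap1, Osgin1 and Gclm and low for Tkt and G6pdx.

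**Figure D1:**
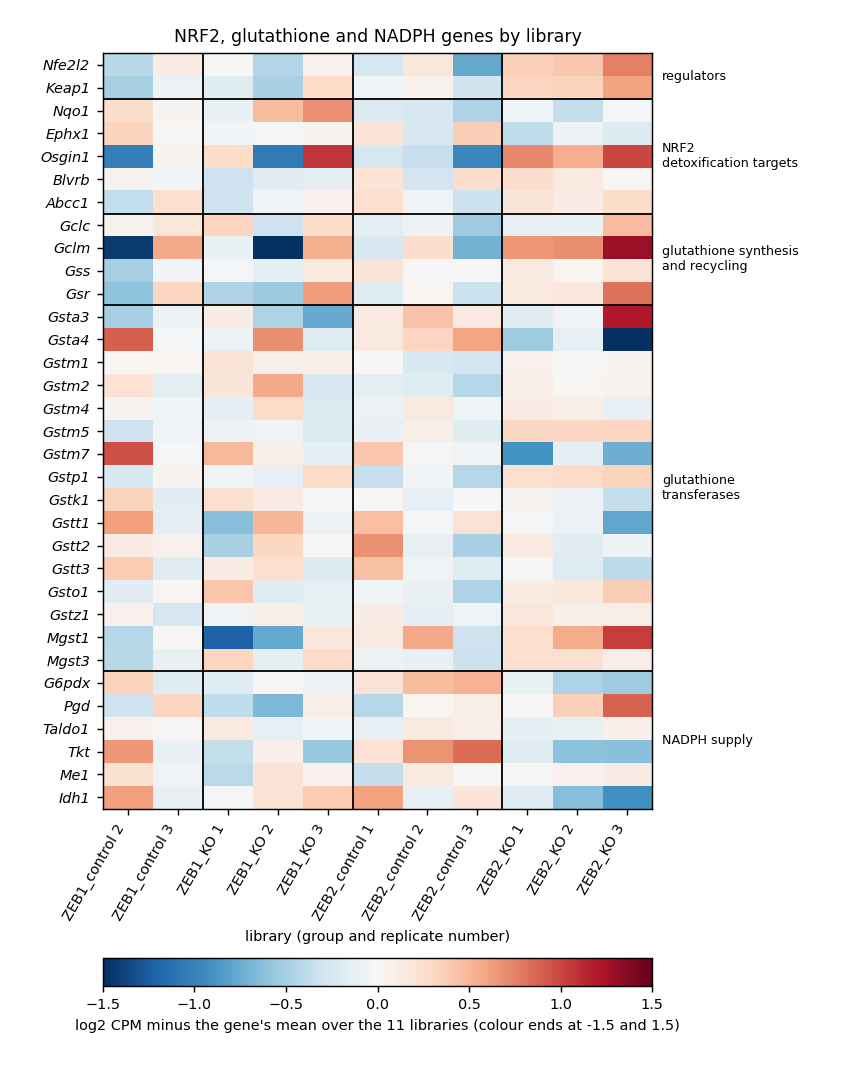
Log2 CPM of each tested member minus its mean over the 11 libraries (colour), with genes in rows by role and libraries in columns by group. Nfe2l2, Keap1, Osgin1 and Gclm are above their means in all 3 ZEB2 knockouts, while Tkt, G6pdx and Idh1 are below theirs.

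Nfe2l2, which encodes NRF2, stood at 55.4, 74.7 and 38.8 CPM in ZEB2 control pools 1 to 3, against 85.0, 88.0 and 112 CPM in the knockout pools 1 to 3. Every knockout pool was above every control pool. The log2 difference was 0.76 (SE 0.25; edgeR adjusted p = 0.0904, DESeq2 adjusted p = 0.0316). Keap1, the inhibitor that holds NRF2 down, stood at 67.4, 73.1 and 57.0 CPM in the control pools, against 88.1, 88.6 and 107 CPM in the knockout pools, again without overlap. Its log2 difference was 0.52 (SE 0.20; edgeR adjusted p = 0.1138). NRF2 and its inhibitor were thus both higher at the RNA level in the same 3 pools.

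Neither regulator separated the groups of the ZEB1 line. Nfe2l2 stood at 49.8 and 72.2 CPM in the control pools, against 66.8, 48.9 and 69.4 CPM in the knockout pools, a log2 difference of 0.02 (SE 0.27; edgeR adjusted p = 0.9998). Keap1 stood at 49.7 and 66.4 CPM in the control pools, against 62.3, 50.4 and 86.9 CPM in the knockout pools, a log2 difference of 0.20 (SE 0.23). For both genes the pools of control and knockout overlapped. ZEB1 control 2 and ZEB1 knockout 2 were the lowest of the line for Nfe2l2.

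The 5 detoxification targets gave unlike values. Osgin1, an oxidative-stress-induced growth inhibitor, stood at 15.9, 15.01 and 9.66 CPM in the ZEB2 control pools, against 31.5, 27.9 and 38.1 CPM in the knockout pools. The groups did not overlap, and the log2 difference was 1.26 (SE 0.46; edgeR adjusted p = 0.1052, DESeq2 adjusted p = 0.0282). Nqo1, a quinone reductase widely used as a readout of NRF2, stood at 17.0, 16.6 and 14.2 CPM in the control pools, against 18.8, 15.3 and 19.1 CPM in the knockout pools. These groups overlapped, with a log2 difference of 0.15 (SE 0.19; edgeR adjusted p = 0.5836). Abcc1, an exporter of glutathione conjugates, differed by 0.22, Blvrb, a biliverdin reductase, by 0.06 and Ephx1, an epoxide hydrolase, by -0.34 on the log2 scale, and their groups overlapped as well. Of these 5 genes only Osgin1 separated the ZEB2 groups.

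Among ZEB1 pools Osgin1 varied widely within groups, at 9.40 and 19.7 CPM in the control pools, against 23.2, 9.14 and 40.2 CPM in the knockout pools (log2 difference 0.74, SE 0.52; edgeR adjusted p = 0.9998). Blvrb was lower in every ZEB1 knockout pool, at 3.57 to 4.03 CPM against 4.30 and 4.57 CPM. Over all genes, 6.69% were lower and 7.19% were higher without overlap in this line. The members counted 1 lower (Blvrb) and 1 higher (Gstm1) of 33.

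**Figure D2:**
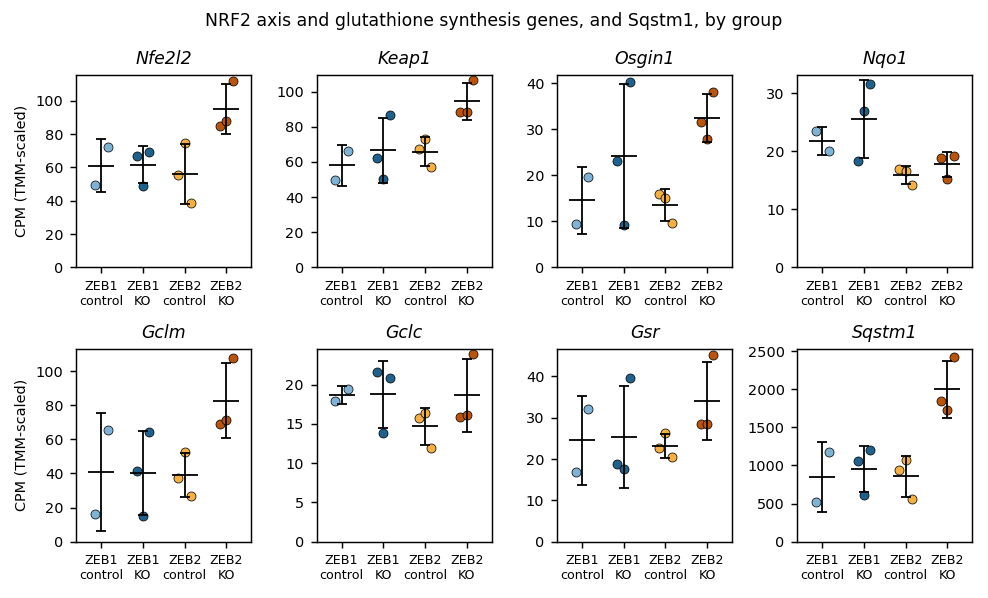
CPM of Nfe2l2, Keap1, Osgin1, Nqo1, Gclm, Gclc and Gsr, and of Sqstm1, in each library (points) by group, with the group mean and SD (lines). The 3 ZEB2 knockouts lie above all ZEB2 controls for every gene shown except Nqo1 and Gclc.

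Of the 4 glutathione synthesis and recycling genes tested, Gclm, the modifier subunit of the rate-limiting ligase, showed the widest spread between libraries. Its level was 37.5, 52.8 and 26.8 CPM in the ZEB2 control pools, against 69.2, 71.1 and 108 CPM in the knockout pools. The groups did not overlap and the log2 difference was 1.09, but its SE of 0.57 gave an edgeR adjusted p of 0.2045. Among ZEB1 pools Gclm stood at 16.3 and 65.3 CPM in the control pools, against 41.2, 14.97 and 64.3 CPM in the knockout pools. There the control pools alone spanned nearly the whole range of the line.

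The catalytic subunit Gclc varied less. It stood at 15.7, 16.4 and 11.9 CPM in the ZEB2 control pools, against 15.9, 16.1 and 24.0 CPM in the knockout pools, a log2 difference of 0.34 (SE 0.21; edgeR adjusted p = 0.2699). Without ZEB2 knockout 3 it was 0.14, and without ZEB2 control 3 it was 0.21. Gsr stood at 22.6, 26.3 and 20.6 CPM in the control pools, against 28.5, 28.6 and 45.1 CPM in the knockout pools, without overlap (log2 difference 0.55, SE 0.34; edgeR adjusted p = 0.2664). Gss was flat, at 4.19 to 4.82 CPM in the control pools, against 4.30 to 4.87 CPM in the knockout pools, a log2 difference of 0.06 (SE 0.18) that became -0.070 and -0.065 when libraries were scaled by the upper quartile or by their totals and -0.028 with Y-linked expression as a covariate. Slc7a11 had 30 counts over all 11 libraries and 0 to 7 in any of them. Its 0 in ZEB2 control 1 allows up to 0.0928 CPM (3 counts; counting error only), so the importer was not measurable at this depth. Of the same genes in the ZEB1 line, Gclc was at 17.9 and 19.4 CPM in the control pools, against 21.6, 13.9 and 20.8 CPM in the knockout pools, and Gsr at 16.9 and 32.1 CPM against 18.8, 17.6 and 39.6 CPM. Gss was at 2.99 and 4.09 CPM against 4.16, 3.80 and 4.67 CPM. Control and knockout pools overlapped for all 3 genes.

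The 16 glutathione transferases, which conjugate glutathione to electrophiles, covered a wide span of levels. Per kb of exon and averaged over the 5 floxed controls, the microsomal Mgst3 led at 139 CPM per kb (range 120 to 152), followed by the cytosolic Gstm1 at 109.5 (94.9 to 119) and Gstp1 at 76.7 (64.9 to 89.7). Gstm5 at 48.2 and Gstm2 at 42.6 CPM per kb came next, with ranges that overlapped each other but not that of Gstp1. Mgst3, Gstm1 and Gstp1 made up 27.9%, 22.0% and 15.4% of the summed per-length level of the 16 genes. Lengths are the merged exons of all annotated transcripts, so this order depends on them. In CPM Gstm1 was above Mgst3 in both ZEB1 controls (174 and 175 against 132 and 163) and in ZEB2 control 1 (172 against 166). It was below Mgst3 in ZEB2 controls 2 and 3 (146 and 139.8 against 162 and 140.6). The lowest was Gsta3, an alpha-class transferase, at 0.222 CPM per kb. Of the stretches counted, 33.7% of the 50-base words of Gstp1 are shared with its near-copy Gstp2 and 18.9% of those of Gstm1 are shared with related genes, so how reads were split between such copies is uncertain.

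**Figure D3:**
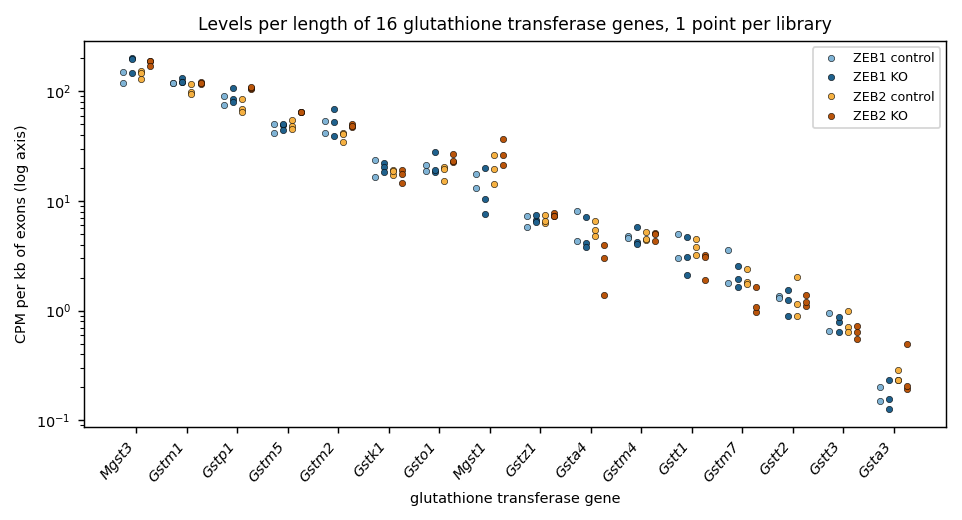
CPM per kb of exons (log axis) of the 16 glutathione transferase genes, ordered by mean level in floxed controls, with 1 point per library coloured by group. Mgst3, Gstm1 and Gstp1 lie highest, Gsta3 lies lowest, and ZEB2 knockouts lie above their controls for Gstp1 and Gstm5 and below them for Gsta4 and Gstm7.

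In the ZEB2 line 10 of the transferases stood higher and 6 stood lower in knockouts, and their median log2 difference was 0.17 beside -0.047 over all genes tested. That median was 0.041 and 0.043 when libraries were scaled by the upper quartile or by their totals, which moved the median over all genes to -0.18 and -0.17. The summed level of the 16 genes was 761, 761 and 649.6 CPM in the ZEB2 control pools, against 898, 896 and 908 CPM in the knockout pools. Without overlap between groups, 6 transferases were higher and 3 were lower, where 21.3% and 22.1% of all genes were. Of all 33 members 11 were higher and 6 lower in this way.

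Gstp1, the pi-class enzyme, stood at 107, 132 and 100.4 CPM in the ZEB2 control pools, against 161, 165 and 169.8 CPM in the knockout pools. The knockout pools lay close together and above all controls, with a log2 difference of 0.55 (SE 0.16; edgeR adjusted p = 0.0806, DESeq2 adjusted p = 0.0168). Its near-copy Gstp2 stood at 47.2, 60.8 and 43.4 CPM in the control pools, against 78.9, 75.5 and 85.1 CPM in the knockout pools (log2 difference 0.66, SE 0.17; edgeR adjusted p = 0.0775). Reads shared by the 2 genes may enter both values.

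Gstm5, a mu-class enzyme, stood at 61.7, 70.3 and 58.3 CPM in the ZEB2 control pools, against 82.1, 82.1 and 82.8 CPM in the knockout pools. Its log2 difference was 0.38 (SE 0.12; edgeR adjusted p = 0.0908, DESeq2 adjusted p = 0.0311), and 13.9% of its exonic length overlaps the antisense transcript 4933431E20Rik. The strand setting of the counting is not given in the sources used here, so reads of the antisense gene may be included. Mgst3 stood at 166, 162 and 141 CPM in the control pools, against 207, 206 and 188 CPM in the knockout pools (log2 difference 0.36, SE 0.15; edgeR adjusted p = 0.1346). Gsto1, of the omega class, stood at 41.1, 39.3 and 30.6 CPM against 45.8, 47.3 and 54.7 CPM (log2 difference 0.41, SE 0.18; edgeR adjusted p = 0.1401). Gstm1, which was abundant in all groups, stood at 172, 146 and 139.8 CPM against 179, 172 and 176 CPM, with a log2 difference of only 0.20 (SE 0.12; edgeR adjusted p = 0.2419). Gstm2 differed by 0.31 (SE 0.19) without overlap. Under TMM scaling the 5 transferases most abundant per length were thus all higher in every ZEB2 knockout pool, with log2 differences from 0.20 to 0.55. For Gstm1 the margin was narrow, at 171.6 CPM in ZEB2 control 1 against 172.01 CPM in ZEB2 knockout 2. Its log2 difference was 0.074 and 0.077 when libraries were scaled by the upper quartile or by their totals.

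The 3 transferases that were lower in ZEB2 knockouts without overlap were Gsta4, Gstm7 and Gstt1. Gsta4, an alpha-class enzyme that conjugates products of lipid peroxidation, stood at 6.06, 6.93 and 8.34 CPM in the control pools, against 3.82, 5.06 and 1.75 CPM in the knockout pools. The groups did not overlap, and the log2 difference was -1.0003 (SE 0.39; edgeR adjusted p = 0.1121, DESeq2 adjusted p = 0.0587). Gstm7 stood at 3.87, 2.93 and 2.80 CPM in the control pools, against 1.55, 2.62 and 1.75 CPM in the knockout pools (log2 difference -0.69, SE 0.31; edgeR adjusted p = 0.1442). Gstt1, of the theta class, stood at 6.87, 4.929 and 5.81 CPM against 4.927, 4.72 and 2.93 CPM (log2 difference -0.49, SE 0.31). ZEB2 control 2 was above ZEB2 knockout 1 by less than the worth of 1 read. The remaining 7 (Gsta3, Gstm4, Gstk1, Gstt2, Gstt3, Gstz1 and Mgst1) had overlapping groups and log2 differences from -0.28 for Gstt3 to 0.48 for Mgst1.

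In the ZEB1 line 8 transferases stood higher and 8 stood lower, and their median log2 difference was 0.0012 (0.0069 over all genes). Mgst3 was the 1 member with an unadjusted edgeR p under 0.05, where 3.24% of all genes were. It stood at 132 and 163 CPM in the control pools, against 219, 160 and 215 CPM in the knockout pools, so that ZEB1 knockout 2 fell within the controls (log2 difference 0.43, SE 0.17; unadjusted p = 0.0316, edgeR adjusted p = 0.9998). Gstm1 was higher in every knockout pool, but only by a narrow margin, at 195, 180 and 181 CPM against 174 and 175 CPM. Gstp1 stood at 116 and 139 CPM in the control pools, against 131, 124 and 167 CPM in the knockout pools. Gstm5 stood at 53.4 and 63.9 CPM against 62.7, 63.6 and 57.2 CPM, and Gsta4 at 10.3 and 5.42 CPM against 5.20, 8.95 and 4.82 CPM. For these last 3 genes the control and knockout pools overlapped.

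The 6 enzymes of NADPH supply are described apart from the transferases. NADPH comes from the oxidative pentose phosphate branch (G6pdx and Pgd), fed back by transketolase (Tkt) and transaldolase (Taldo1) of the non-oxidative branch, and from cytosolic malic enzyme (Me1) and isocitrate dehydrogenase (Idh1). In ZEB2 knockouts 2 of the 6 stood higher and 4 stood lower. Their median log2 difference was -0.43 beside -0.047 over all genes tested. It was -0.56 when libraries were scaled by the upper quartile or by their totals. Those 2 scalings moved the median over all genes to -0.18 and -0.17. The groups of 3 genes, Tkt, G6pdx and Idh1, were lower without overlap and those of none were higher, where 22.1% and 21.3% of all genes were.

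Tkt stood at 19.6, 26.999 and 30.1 CPM in the ZEB2 control pools, against 14.8, 11.02 and 10.9 CPM in the knockout pools. Its log2 difference was -1.06 (SE 0.24; edgeR adjusted p = 0.0775, DESeq2 adjusted p = 0.00598). G6pdx, the entry enzyme of the pathway, stood at 4.67, 5.70 and 5.89 CPM in the control pools, against 3.79, 2.97 and 2.84 CPM in the knockout pools (log2 difference -0.76, SE 0.20; edgeR adjusted p = 0.0775, DESeq2 adjusted p = 0.0164). Its exons overlap those of Ikbkg on the opposite strand over 13.6% of their length, and 6.46% of its 50-base words are shared with other genes, led by G6pd2. Idh1 stood at 35.8, 21.8 and 26.7 CPM in the control pools, against 20.8, 15.2 and 12.5 CPM in the knockout pools (log2 difference -0.80, SE 0.25; edgeR adjusted p = 0.0869, DESeq2 adjusted p = 0.0334). For all 3 genes ZEB2 knockout 1 was the knockout pool nearest to the controls.

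The next enzyme of the oxidative branch did not follow G6pdx. Pgd stood at 15.1, 20.7 and 21.8 CPM in the ZEB2 control pools, against 20.3, 26.0 and 37.3 CPM in the knockout pools, with overlapping groups and a log2 difference of 0.54 (SE 0.27; edgeR adjusted p = 0.1852). Me1, the most abundant of the 6 per length at 44.2 CPM per kb in floxed controls, stood at 132, 188 and 169.89 CPM against 169.96, 176 and 183 CPM (log2 difference 0.11, SE 0.18; edgeR adjusted p = 0.6814), a sign that turned to -0.017 and -0.010 under upper-quartile and total-count scaling. Of its 50-base words 22.9% occur in other genes, mostly the pseudogene Gm7049. Taldo1 stood at 41.3, 49.6 and 48.3 CPM against 40.8, 41.5 and 47.3 CPM (log2 difference -0.10, SE 0.13). Within the non-oxidative branch Tkt thus separated the groups and Taldo1 did not.

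In the ZEB1 line all 6 had log2 differences below 0, with a median of -0.15 beside 0.0069 over all genes, and all 6 groups overlapped. Tkt came nearest to a difference, at 26.4 and 15.7 CPM in the control pools, against 13.2, 17.7 and 11.4 CPM in the knockout pools (log2 difference -0.58, SE 0.27; unadjusted p = 0.055, edgeR adjusted p = 0.9998). Idh1 stood at 36.3 and 21.8 CPM in the control pools, against 23.2, 27.5 and 30.9 CPM in the knockout pools. G6pdx stood at 5.23 and 3.603 CPM against 3.605, 4.15 and 3.89 CPM, Pgd at 16.4 and 25.4 CPM against 15.6, 12.7 and 21.5 CPM, and Me1 at 198 and 163 CPM against 128, 194 and 177 CPM. Without ZEB1 control 2 the differences of G6pdx, Me1 and Idh1 turned to 0.090, 0.013 and 0.30, and without ZEB1 control 3 that of Pgd turned to 0.011.

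**Figure D4:**
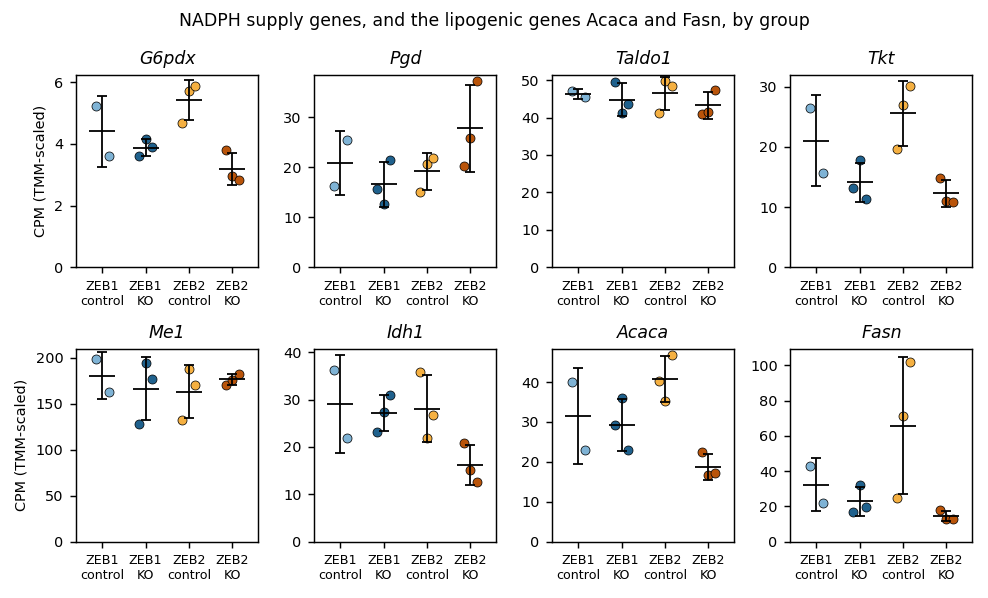
CPM of the 6 NADPH supply genes and of the lipogenic genes Acaca and Fasn in each library (points) by group, with the group mean and SD (lines). Tkt, G6pdx, Idh1, Acaca and Fasn are lower in all 3 ZEB2 knockouts than in any ZEB2 control, while Pgd, Taldo1 and Me1 overlap.

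NADPH is consumed by fatty acid synthesis, and the lipogenic genes of a list of 10 were described beside the NADPH genes. All 10 had log2 differences below 0 in the ZEB2 line, with a median of -1.09, where 46.6% of all genes were above 0. At an unadjusted edgeR p under 0.05, 8 were lower, as were 17.3% of all genes. Acaca, acetyl-CoA carboxylase, stood at 40.2, 35.3 and 46.8 CPM in the ZEB2 control pools, against 22.4, 16.6 and 17.1 CPM in the knockout pools (log2 difference -1.12; edgeR adjusted p = 0.0775). Pnpla3, a lipid-droplet acyltransferase and lipase, had a log2 difference of -2.004 with the same adjusted p in edgeR. Adipocytes also express these genes: summed CPM of 10 adipocyte markers was 2923 to 3169 in ZEB2 controls and 2356 to 3177 in ZEB2 knockouts, overlapping, with only Lep at 0 in 1 pool, and 9 of 10 had log2 differences below 0. The part of fat cells in the NADPH values was not tested.

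Summed markers of several other cell types separated the ZEB2 groups, and those of others overlapped. The overlapping sums were those of endothelium (868 to 1120 CPM in controls against 793 to 912 CPM in knockouts) and Schwann cells (241 to 479 against 157 to 258). Erythroid cells (1392 to 1782 against 1134 to 1429) and satellite cells (74.5 to 86.3 against 86.2 to 143) overlapped too. Most single markers of these types still had log2 differences below 0. They were 10 of 12 for endothelium, 8 of 8 for Schwann cells, 7 of 7 tested for erythroid cells and 7 of 8 for satellite cells. Summed CPM of 14 fibroblast markers was 2201 to 2801 in ZEB2 controls and 1875 to 2100 in knockouts, and that of 12 macrophage markers was 131 to 172 against 107 to 118, in both cases lower in knockouts without overlap. Of these markers 13 of 14 and 11 of 12 had log2 differences below 0. Summed CPM of 8 tendon markers was 90.8 to 188 in ZEB2 controls and 57.3 to 74.4 in knockouts (8 of 8 lower), and that of 10 smooth muscle and pericyte markers was 787 to 862 against 629 to 648 (10 of 10 lower). The sum of 10 slow myofibre markers was 4025 to 4817 CPM against 2295 to 3762 CPM (10 of 10 lower). In ZEB1 pools the fibroblast sum was 2947 to 3047 in controls and 1829 to 2595 in knockouts (14 of 14 lower), and the tendon sum was 101 to 114 against 44.9 to 57.6 (8 of 8 lower). Of the fibroblast and macrophage markers only Fcgr1 was at 0 in a pool, ZEB2 knockout 3. In the ZEB2 line the 15 myofibre markers summed to 136549 to 145107 CPM in the control pools, against 154587 to 161947 CPM in the knockout pools. Of these markers 8 had log2 differences above 0 and 7 below, and without overlap 5 were higher and 7 lower. The ZEB1 sums overlapped, at 126275 to 149620 CPM in controls and 123552 to 153940 CPM in knockouts. The part of these cell types in the lower values of Gsta4, Tkt, G6pdx and Idh1 was not tested.

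Of 20 other genes of the NRF2 pathway, 18 stood higher and 2 stood lower in ZEB2 knockouts, where 46.6% of all genes stood higher. Their median log2 difference was 0.62, with 11 higher and 1 lower at an unadjusted edgeR p under 0.05, where 15.9% and 17.3% of all genes were. Fth1, the ferritin heavy chain that stores iron, had a log2 difference of 0.61 (SE 0.12; edgeR adjusted p = 0.0775, DESeq2 adjusted p = 0.000884). Sqstm1, the autophagy receptor p62 that also binds KEAP1, differed by 1.22 (SE 0.35; edgeR adjusted p = 0.0824). For ZEB1 the same 20 genes split 13 higher to 7 lower with a median of 0.088, where 51.2% of all genes were higher. None had an unadjusted edgeR p under 0.05, where 3.24% of all genes did. The 2 with the smallest p there were Txnrd1, thioredoxin reductase, at 0.60 and Ugdh, UDP-glucose dehydrogenase, at -0.34 on the log2 scale.

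Of 21 other glutathione genes 12 were higher and 9 lower in ZEB2 knockouts (median 0.15), with Gpx8, a glutathione peroxidase of the endoplasmic reticulum, at -1.09 (edgeR adjusted p = 0.0775) and Glrx3, a glutaredoxin, at 0.38 (edgeR adjusted p = 0.0835). Of 11 other transferases 6 were tested, of which 5 were lower, including Hpgds, the haematopoietic prostaglandin D synthase, at -1.24, and 1, Gstp2, was higher. Of 16 other genes of NADPH supply 11 were higher and 5 lower (median 0.10). Over all genes tested 46.6% were higher in ZEB2 knockouts. Rpia, which makes ribose 5-phosphate in the non-oxidative branch, had a log2 difference of -0.79 (SE 0.22; edgeR adjusted p = 0.0787), and H6pd, the counterpart of G6pdx in the endoplasmic reticulum, one of 1.35 (SE 0.58; edgeR adjusted p = 0.1379). Among the ZEB1 pools the smallest unadjusted p-values of these lists belonged to Hagh (0.35) and Slc25a39 (0.31), Gstp2 (0.40) and Ptges (-0.32), and Shmt2 (0.27) and Pgls (0.25), all with an edgeR adjusted p of 0.9998.

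The pools within a group also differed, and their order was much the same for several members. Within each line ZEB1 control 2 and ZEB1 knockout 2, and ZEB2 control 3, were the lowest pools for Nfe2l2, Osgin1 and Gclm. Sqstm1 was at 521, 613 and 561 CPM in these pools and between 936 and 2429 CPM in the other 8. Trim63, which encodes the muscle atrophy ligase MuRF1, was at 769.9, 925 and 956 CPM in these pools and between 2139 and 7378 CPM elsewhere. The 16 atrophy genes of another list were all higher in ZEB2 knockouts, with a median log2 difference of 1.16, where 46.6% of all genes were higher. Ddx3y, a Y-linked gene that marks male mice, was at 0 in the same 3 pools and in ZEB1 knockout 1. It stood at 58.1, 149 and 0 CPM in the ZEB2 control pools, against 131, 159 and 258 CPM in the knockout pools. With Y-linked expression as a covariate the ZEB2 log2 difference was 0.59 for Nfe2l2, 0.35 for Keap1, 0.90 for Osgin1, 0.63 for Gclm, 0.25 for Gsr, 0.44 for Gstp1, -0.87 for Tkt and -0.68 for G6pdx, and 5 members were higher and 3 lower at an unadjusted edgeR p under 0.05. The share of all genes at that p was not counted in the fit with the covariate. The part of the sex of the pools and of the degree of atrophy in these differences was not tested beyond that covariate.

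Whether the 2 knockouts differed in their effect was tested as an interaction, the ZEB2 log2 difference minus the ZEB1 one. No member passed an adjusted p of 0.05, and no member had an unadjusted edgeR p under 0.05, where 9.26% of all genes did (DESeq2 called no member and 0.0908% of genes). The nearest were Pgd at 0.87 (SE 0.40; unadjusted p = 0.0554, edgeR adjusted p = 0.5164) and Nfe2l2 at 0.74 (SE 0.36; unadjusted p = 0.0674, edgeR adjusted p = 0.5164). Between the floxed controls of both lines no member passed either, where edgeR called 0.0195% of genes and DESeq2 0.0773%, and 3.32% had an unadjusted p under 0.05. Nqo1 came nearest, at 23.5 and 20.1 CPM in ZEB1 controls and 14.2 to 17.0 CPM in ZEB2 controls (log2 difference -0.45, SE 0.21; unadjusted p = 0.0539, edgeR adjusted p = 0.9999).

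**Figure D5:**
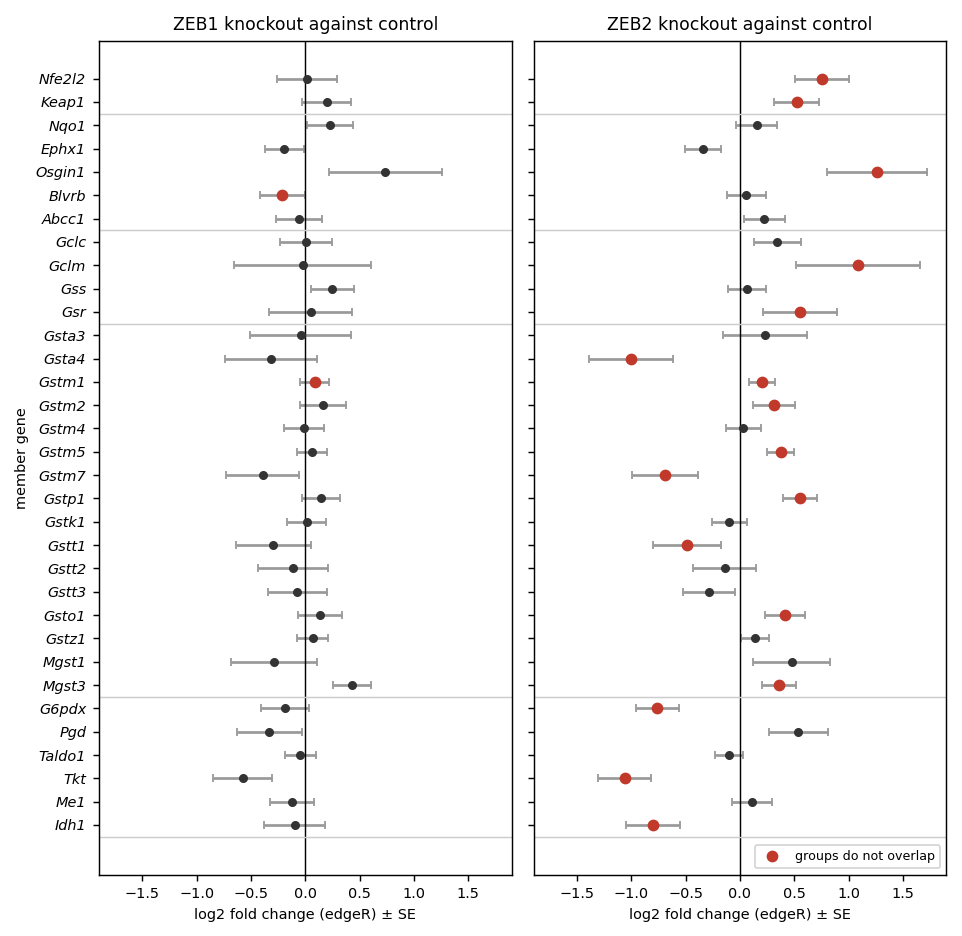
Log2 differences of each tested member (edgeR, points) with SE (bars) for knockout against control in the ZEB1 line (left) and the ZEB2 line (right), with red points where no knockout pool overlaps a control pool. In the ZEB1 line 2 members are red and in the ZEB2 line 17 are, 11 higher and 6 lower.

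Counts behind single values set their precision. The 33 tested members had between 19 counts (the lowest library for Gsta3) and 8949 counts (the highest for Mgst3) per library. Without ZEB2 control 3 the members at an unadjusted edgeR p under 0.05 in the ZEB2 line numbered 3 higher and 4 lower. Without ZEB2 knockout 3 they numbered 4 higher and 3 lower, against 7 and 5 with all libraries. The share of all genes at that p was not counted in the fits with a library left out. The fall in members thus cannot be set against all genes. The smallest edgeR adjusted p over all genes rose too, from 0.0775 to 0.3021 without ZEB2 control 3. Without ZEB2 knockout 3 it was 0.2498.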

How the data were processed

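RNA was extracted from pooled gastrocnemius and libraries were made from total RNA, per the labels. Estimated counts per gene were deposited by the authors as whole numbers without normalization. The submitters' processing notes name STAR, RSEM, DESeq2 and GRCm38, without versions; no source used here gives settings, annotation release or strand setting. Genes were filtered with filterByExpr (minimum count 10, minimum total 15), which kept 15416 genes holding 99.96% of counts. TMM factors scaled the library sizes, and edgeR 4.0.16 (R 4.3.3) fitted a robust quasi-likelihood model with 4 group means over 11 libraries, with Benjamini-Hochberg adjustment over all genes tested and a threshold of 0.05. SE is the absolute log2 difference over the root of F. The fit was tested on simulated data. Replicates differed by more than counting noise. Exon lengths, overlaps and shared 50-base words came from GENCODE M21 (GRCm38) and promoter sequences from RefSeq (GRCm38.p6).

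The members and lists were chosen with earlier results of these data known. Every member was accounted for. Values in every library are given for Nfe2l2 and Keap1, for members called by edgeR or DESeq2, and for those with an unadjusted p under 0.05 and no overlap. They are also given for the most abundant and smallest-p members of the glutathione and NADPH lists. Exceptions are Gstm7, Gstt1, Gsto1 and Taldo1, with pool values for the ZEB2 line only, and Gss, with ranges in that line. Other lists have at most 2 named genes per contrast; genes outside this rule (Trim63, Ddx3y, Nqo1, Blvrb and the genes of the closing observations) were chosen after their values were seen. Alternatives were DESeq2 1.42.0, limma-voom (limma 3.58.1), other scalings and filters, fewer groups, a replicate block, a Y-linked covariate and leaving out each library.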

Additional observations from a re-analysis of the deposited data

How the results depend on the processing

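In the ZEB2 line 0 members passed in edgeR with all 11 libraries, and also in limma-voom, under every other scaling, with the replicate block (0), with Y-linked expression as a covariate and without each library in turn (0 to 0). DESeq2 called 7 members, the fit without a low-count filter 1 (Tkt, of 348 genes or 1.29%) and the fit of the ZEB2 groups alone 6 (Tkt, G6pdx, Gstp1, Osgin1, Keap1 and Gclm, of 2077 genes or 14.2%). No member was called in the ZEB1 line, in the difference of effects or between control lines under any alternative run. Same-numbered libraries of control and knockout had deviations correlated at 0.195, -0.0274 and -0.313 in the ZEB2 line and at 0.465 and 0.174 in the 2 pairs of the ZEB1 line, so the numbers were not taken to pair the samples. With the replicate block the ZEB2 members at an unadjusted edgeR p under 0.05 were 10 higher and 6 lower. The share of all genes at that p was not counted in that fit.

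Upper-quartile scaling and library totals alone moved the ZEB2 median of the transferases from 0.17 to 0.041 and 0.043. They moved that of the NADPH genes from -0.43 to -0.56 in both, and of all members from 0.15 to 0.023 and 0.029. The ZEB2 median over all genes moved as well, from -0.047 to -0.18 and -0.17. Leaving out each library gave ZEB2 medians of 0.13 to 0.24 and -0.48 to -0.38, and ZEB1 medians of -0.063 to 0.090 and -0.34 to -0.013.

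Signs reversed mostly in the ZEB1 line, and the cause was not tested. In the ZEB2 line Gss turned to -0.070 (upper quartile), -0.065 (library totals) and -0.028 (Y-linked covariate), and Me1 to -0.017 and -0.010 under both scalings. For ZEB1, Nfe2l2 was -0.0081 (upper quartile), -0.0293 (library totals), -0.0294 (mean of at least 1 CPM) and -0.042 (replicate block), and Gclc -0.029, -0.050, -0.037 and -0.13 in the same order and -0.017 in limma-voom. Gsr was -0.00098 (mean of at least 1 CPM), Gclm 0.067 (limma-voom) and 0.30 (Y-linked covariate), and under the replicate block Gsto1 was -0.083, Me1 0.043 and Idh1 0.047.

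Without each library in turn, ZEB1 differences ranged from -0.25 to 0.30 for Nfe2l2, -0.053 to 0.41 for Keap1, -0.12 to 0.18 for Gclc, -0.73 to 1.28 for Gclm and -0.44 to 0.57 for Gsr. Among transferases they ranged from -0.71 to 0.21 for Gsta4, -0.082 to 0.19 for Gstm5, -0.81 to 0.17 for Gstm7, -0.0073 to 0.27 for Gstp1, -0.63 to 0.11 for Gstt1 and -0.098 to 0.24 for Gsto1. Among NADPH genes they ranged from -0.44 to 0.090 for G6pdx, -0.26 to 0.028 for Me1, -0.43 to 0.30 for Idh1, -0.63 to 0.011 for Pgd and -0.14 to 0.0098 for Taldo1. The ZEB2 difference of Me1 ranged from -0.020 to 0.22. With 1 ZEB1 control left out, the lone control is assumed to vary like the other groups.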

Other observations

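The pool ZEB1 knockout 3 stood apart for several NRF2 targets, which were picked after their values were seen. It was the highest of the 11 libraries for Nqo1 at 31.5 CPM, Osgin1 at 40.2 CPM, Txnrd1 at 135 CPM and Srxn1, the sulfiredoxin gene, at 167 CPM. The next highest values were 26.98 CPM for Nqo1 in ZEB1 knockout 2, and 38.1, 108 and 107 CPM for Osgin1, Txnrd1 and Srxn1 in ZEB2 knockout 3. Nfe2l2 itself was at 69.4 CPM in ZEB1 knockout 3, below all 3 ZEB2 knockouts (85.0 to 112 CPM). Gclm was at 64.3 CPM there, close to 65.3 CPM in ZEB1 control 3. Of other NRF2 pathway genes, Nfe2l1 was also highest in ZEB1 knockout 3, at 585 CPM, close to 577 CPM in ZEB1 knockout 1. Several others did not peak in ZEB1 knockout 3. Hmox1 was at 17.9 CPM there and highest in ZEB1 knockout 1, at 42.1 CPM. Prdx1 and Txn1 were at 278 and 87.6 CPM there and highest in ZEB2 knockout 3, at 464 and 103 CPM. Among the other pools, Srxn1 ran from 19.0 to 69.9 CPM apart from ZEB2 knockout 3. ZEB1 knockouts 1 and 2 had Srxn1 at 41.6 and 19.0 CPM, so that a single pool carried the high level of that group.

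Some genes around NRF2 and glutathione that are no members also stood higher in ZEB2 knockouts than in ZEB2 controls. Bach1, a repressor that competes with NRF2, had a log2 difference of 1.17 (SE 0.38; edgeR adjusted p = 0.0908, DESeq2 adjusted p = 0.0197), and the small MAF genes Mafg and Mafk had 1.08 and 1.27 (edgeR adjusted p = 0.1284 and 0.1218). Chac1, which degrades glutathione, differed by 1.05 (SE 0.34; edgeR adjusted p = 0.0899) and Slc3a2, the partner chain of the cystine importer, by 0.95 (SE 0.31; edgeR adjusted p = 0.0907). For Chac1 the ZEB2 controls were the low group, at 24.6 to 45.8 CPM, and the ZEB2 knockouts at 50.5 to 101 CPM lay mostly below the ZEB1 pools, at 83.0 to 178 CPM. These 5 genes were named after their values were seen.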
